A study of Mus musculus with 6 samples.

Results

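DNA replication and mitosis genes were examined as a set of 44 genes, of 56980 genes in the deposited count table. The 44 were chosen by name for their roles in the cell cycle, with earlier results of these data known. Of these, 20 act in DNA replication (S phase) and 24 in mitosis, and the 2 sets were kept apart. All 44 were among the 15190 genes that passed the filter on low counts. After fecal microbiota transplantation (FMT) from exercised donors, 12 of the 20 replication genes were higher and none lower, with median log2 difference 0.39, while 4 of the 24 mitosis genes were higher and 1 lower. Of all tested genes 16.6% were higher and 15.5% lower, so that with all 6 samples the mitosis share of higher genes (16.7%) was that of the background. The largest differences were those of the origin licensing factor Cdt1 (1.94-fold) and the ribonucleotide reductase subunit Rrm2 (1.74-fold), and no member passed the adjusted p threshold with a 2-fold difference.

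A dividing cell copies its DNA once. In G1 the licensing factors Cdc6 and Cdt1 load the MCM helicase onto replication origins, and in S phase Cdc45 and the GINS complex turn it into the active helicase, which runs ahead of polymerases held by the sliding clamp Pcna. E2F transcription factors, freed from RB by cyclin-dependent kinases, drive most of these genes. Mitosis genes follow later, in G2 and M, from promoters with CCAAT boxes and a cell cycle homology region (CHR) bound by the DREAM and MuvB complexes. Stromal cells from marrow divide in culture, and so do marrow progenitors and macrophages that adhere with them.

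The samples were bone marrow mesenchymal stem cells (BM MSCs) from ovariectomised (OVX) female mice, a model of bone loss after estrogen deficiency. All recipients had lost their ovaries at 8 weeks of age and their own gut microbiota to oral antibiotics, and were then gavaged daily for 8 weeks with feces of OVX mice that had either stayed sedentary (FMT-Ctrl in the labels, here TranspCtrl, n = 3) or run on a treadmill for 8 weeks (FMT-Exer, here TranspExer, n = 3). Cells were flushed from femurs and tibias and grown for 7 days with repeated washes, with no sort described, so that adherent cells of any kind could remain. The sources name neither the mouse strain nor whether the samples of a group are separate animals or cultures, so p-values measure the spread between these samples, which may be technical.

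Total counts were 17647638 to 21319166 per sample, and 3 counts equalled 0.139 to 0.174 CPM (counts per 1000000 of the scaled library). TranspCtrl sample 1 stood apart from the other TranspCtrl samples, at a Euclidean distance of 60.2 and 62.8 in log2 CPM over all tested genes against 37.0 between samples 2 and 3 and 42.8 to 43.9 within TranspExer, and the members' results are therefore also given without it. The labelled stromal cells were there by their markers, and RNA of other cell types was present in both groups. The 11 stromal markers summed to 12093 to 19782 CPM in TranspCtrl and 13007 to 14245 in TranspExer (7 lower, 3 higher). Col1a1, the 1 marker not called, was 4563, 9951 and 9613 against 6795, 7164 and 7708 CPM. Col1a2 (log2 difference -0.61) and Cxcl12 (-0.46) were among those called lower, both without overlap between groups. The 10 macrophage markers summed to 9020 to 14095 and 7249 to 7962 CPM (3 higher, 2 lower), with a median log2 difference of 0.085. The most abundant, Lyz2, was 9102, 4895 and 5238 against 3235, 2897 and 2596 CPM and was called lower, whereas Cd68 was called higher (log2 difference 0.78). The 10 markers of granulocytes and myeloid progenitors summed to 3245 to 4330 and 5773 to 6022 CPM (5 higher, 1 lower), and Mpo, a primary granule enzyme of dividing promyelocytes, was 151, 241 and 257 against 1147, 1163 and 1281 CPM. The 15 B and plasma cell markers summed to 2134 to 2447 and 801 to 850 CPM (8 of 11 tested lower, none higher), with Rag2 at 0 in every sample and Igll1 and Rag1 at 3 counts or fewer. The 8 endothelial markers summed to 193 to 237 and 633 to 692 CPM (8 higher). The 9 T and NK cell markers summed to 60.9 to 64.0 and 80.4 to 86.7 CPM (2 higher, 1 lower). Of the erythroid markers, both tested genes were higher, the transferrin receptor Tfrc, which dividing cells of many kinds express, at 199, 250.4 and 256 against 510.4, 536 and 545 CPM, and the erythropoietin receptor Epor (log2 difference 1.34), while Hbb-bs, Alas2, Slc4a1 and Klf1 were at 3 counts or fewer. The summed levels of the stromal, B and plasma cell and macrophage lists were lower on average in TranspExer, for macrophages with Lyz2 in the sum. Those of the other lists were higher. The part of these cell types in the members' differences was not tested.

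Promoters of 6 members are shown, since these genes stand for the calls in both sets and for the motifs background links to them. RefSeq promoter windows (build GRCm38.p6, 250 bases before the start and 50 from it on) were used for 36 of the 44 members. For the other members, Cdc25c and Kif20a among them, no window was used. The selection of windows for members was not applied to the background, which took all 32851 windows. Uhrf1, Mcm7 and Prc1 had 2 windows each, and a gene was counted as holding a string if either window did. The search, on both strands, covered 4 E2F strings of 8 bases, which were TTTGGCGC and also TTTCCCGC and also TTTGCCGC and also TTTCGCGC, the CHR string TTTGAA, and the CCAAT box. For Uhrf1 and Mcm7 the E2F string was in 1 of the 2 windows, and for Uhrf1 the window shown is the downstream one, while the window at the start of the gene position given with the results held none. E2F strings can overlap each other, as they do in Mcm5 and Mcm6. At least 1 E2F string was in 7 of 17 replication genes with a window (Cdc6, Cdt1, Mcm3, Mcm5, Mcm6, Mcm7 and Uhrf1), in 1 of 19 mitosis genes (Cdk1) and in 2.26% of all 32851 windows. A CHR string was in 15 of 19 mitosis genes, in 2 of 17 replication genes (Cdc45 and Mcm2) and in 17.9% of all windows, and all 15 mitosis genes with it also held a CCAAT box, a pair found in 6.95% of all windows. CCAAT boxes, with or without a CHR string, were in 18 of 19 mitosis genes, in 12 of 17 replication genes and in 37.4% of all windows. The stretches shown run 5′ to 3′ on the strand of the gene, from base -250 to base -4 before the RefSeq start, which can differ from the end of the gene given with the results. Capitals mark E2F strings in the first 3, which are replication genes, and CHR and CCAAT strings in the last 3, which are mitosis genes.
Mcm5 (chr8:75109259-75109505, plus strand): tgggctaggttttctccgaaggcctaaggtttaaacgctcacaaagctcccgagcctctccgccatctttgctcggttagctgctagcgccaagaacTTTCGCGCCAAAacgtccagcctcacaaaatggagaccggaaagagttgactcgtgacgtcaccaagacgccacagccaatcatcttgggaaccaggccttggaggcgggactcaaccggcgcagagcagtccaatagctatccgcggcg
Mcm6 (chr1:128359709-128359955, minus strand): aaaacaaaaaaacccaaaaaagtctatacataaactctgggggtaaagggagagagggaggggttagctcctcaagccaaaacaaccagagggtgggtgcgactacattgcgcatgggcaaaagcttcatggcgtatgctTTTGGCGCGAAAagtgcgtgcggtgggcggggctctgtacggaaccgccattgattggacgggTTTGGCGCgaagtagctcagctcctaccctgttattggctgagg
Uhrf1 (chr17:56304063-56304309, plus strand): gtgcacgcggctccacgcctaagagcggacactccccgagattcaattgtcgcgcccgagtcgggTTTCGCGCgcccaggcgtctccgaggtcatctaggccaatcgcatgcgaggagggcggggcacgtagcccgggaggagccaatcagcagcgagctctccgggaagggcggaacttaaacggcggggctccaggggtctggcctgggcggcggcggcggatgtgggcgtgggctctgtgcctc
Cdc20 (chr4:118437347-118437593, minus strand): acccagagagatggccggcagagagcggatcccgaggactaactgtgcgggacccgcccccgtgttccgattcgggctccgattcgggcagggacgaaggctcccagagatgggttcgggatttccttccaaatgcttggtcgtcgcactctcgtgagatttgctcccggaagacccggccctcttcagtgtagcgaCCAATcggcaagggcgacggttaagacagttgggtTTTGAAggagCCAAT
Ube2c (chr2:164769679-164769925, plus strand): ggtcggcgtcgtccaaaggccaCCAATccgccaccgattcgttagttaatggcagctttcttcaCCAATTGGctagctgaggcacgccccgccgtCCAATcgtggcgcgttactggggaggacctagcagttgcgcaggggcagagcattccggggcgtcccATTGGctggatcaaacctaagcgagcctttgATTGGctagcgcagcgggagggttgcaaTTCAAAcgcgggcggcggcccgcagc
Mki67 (chr7:135716383-135716629, minus strand): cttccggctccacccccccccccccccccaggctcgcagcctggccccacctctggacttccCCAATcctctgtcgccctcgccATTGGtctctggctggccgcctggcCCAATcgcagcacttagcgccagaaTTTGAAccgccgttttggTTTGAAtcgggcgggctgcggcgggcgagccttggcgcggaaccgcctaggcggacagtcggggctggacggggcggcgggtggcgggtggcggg

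Mcm5, Mcm6 and Uhrf1 were called higher, as were Cdc20 and Ube2c, whereas Mki67, with 2 CHR strings and 3 CCAAT boxes, was called lower. E2F strings were in 5 of the 10 called replication genes with a window and in 2 of the 7 not called. CHR strings were in 3 of the 3 mitosis genes called higher that had a window, in 11 of the 15 not called and in the 1 called lower. A match is a description of the letters and was not read as a bound site.

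The first comparison asked whether replication genes differed between recipients of exercised and of sedentary microbiota. By the quasi-likelihood test of edgeR, with p-values adjusted by Benjamini and Hochberg's method over all tested genes, 12 of the 20 (60%) were higher in TranspExer at an adjusted p under 0.05, against 16.6% of all tested genes, and 0 were lower, against 15.5%. No replication gene was lower at an unadjusted p under 0.05 or in DESeq2 either, and DESeq2 also called 12 higher. No member of either set reached a 2-fold difference, against 3.5% of tested genes that were at least 2-fold higher and 5.28% that were at least 2-fold lower, and the same count of 0 was found at an unadjusted p and in DESeq2. The median log2 difference was 0.39 over the 20 genes and -0.018 over all tested genes, and 19 of the 20 values were positive. In 14 of the 20 every TranspExer sample lay above every TranspCtrl sample, against 27.2% of all tested genes, and in none was the order reversed, against 25.1%. In bulk RNA, more dividing cells and more RNA of these genes per cell cannot be told apart.

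The replication genes kept this pattern without TranspCtrl sample 1. Then 14 of the 20 were higher, with Mcm7 and Tyms added to the 12, against 22.1% of tested genes, and none was lower, against 19.6%. With upper-quartile factors 2052 tested genes were higher and 2901 lower, and with library size alone 2013 and 2962, compared with 2523 and 2361 under TMM, and 10 replication genes were higher under each of both other scalings.

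**Figure D1:**
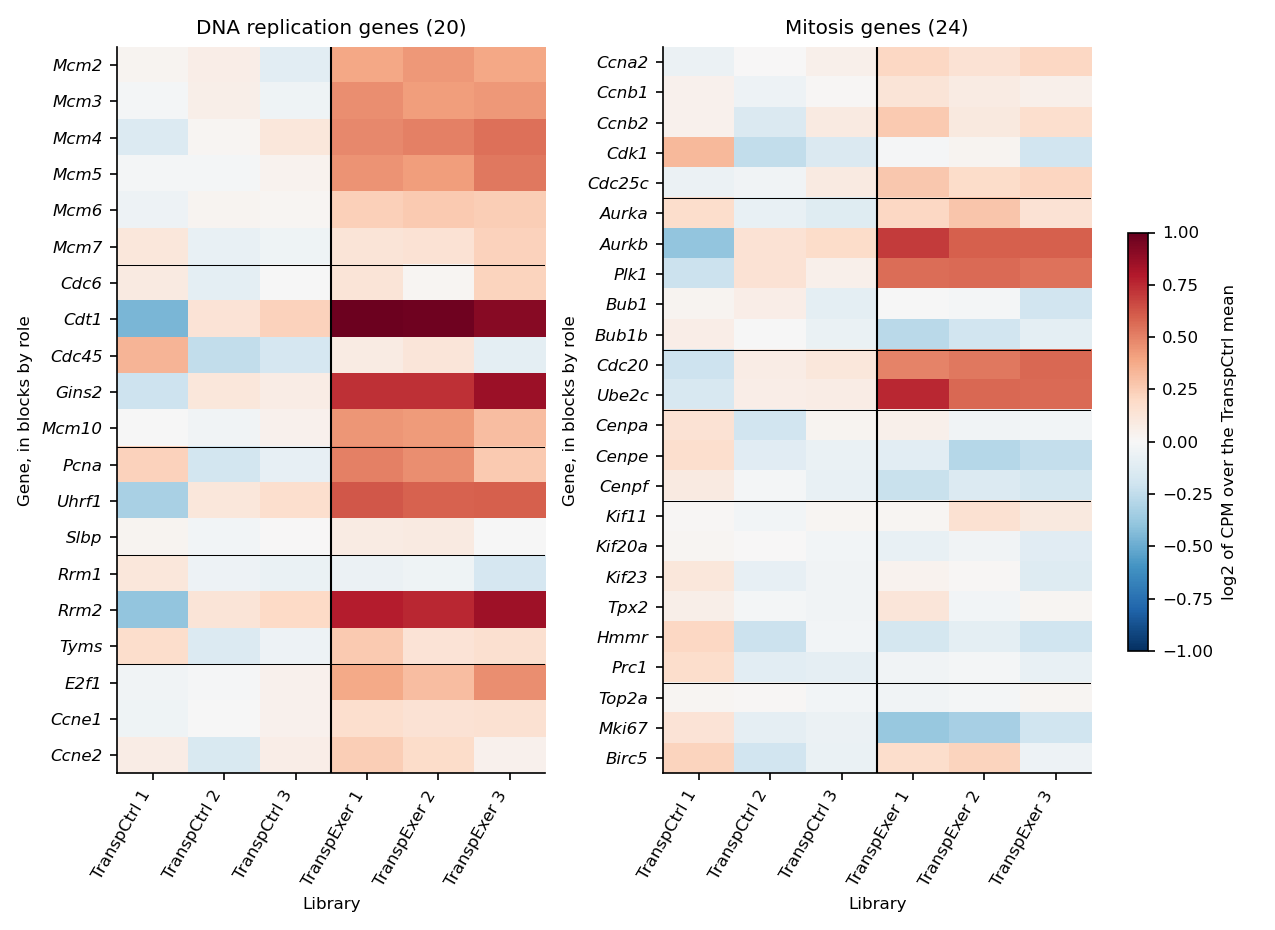
Each row is a member and each column a sample, and the colour gives the log2 of its CPM over the mean of the 3 TranspCtrl samples. The 3 TranspExer columns are red for most replication genes and for Aurkb, Plk1, Cdc20 and Ube2c among mitosis genes, and TranspCtrl sample 1 is the bluest column for Cdt1, Rrm2, Uhrf1 and Aurkb.

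The MCM helicase, a ring of 6 different subunits that unwinds DNA at the fork, was higher in 5 of its 6 subunits. Of all tested genes 16.6% were higher. Summed over the 6 genes it was 500.1, 512 and 507 CPM in TranspCtrl and 648, 650.3 and 665 CPM in TranspExer. Mcm5 (ENSMUSG00000005410, chr8:75109569-75128439 in build GRCm38, as for all gene positions here), a subunit of the gate through which the ring opens, was 79.4, 79.4 and 82.2 CPM in TranspCtrl samples 1 to 3 and 109.7, 107 and 116 CPM in TranspExer samples 1 to 3. The groups did not overlap, and the log2 difference was 0.47 ± 0.071 (SE; adjusted p = 0.00243). Mcm4, one of the core motor subunits, was 74.8, 83.4 and 89.0 CPM in TranspCtrl and 115, 117 and 121 CPM in TranspExer, again without overlap (log2 difference 0.51 ± 0.085, adjusted p = 0.00352). Mcm3, which sits beside Mcm5 in the ring, was 81.6, 86.2 and 80.3 CPM against 114, 110.3 and 112 CPM (0.44 ± 0.070, adjusted p = 0.003). All 3 TranspExer values of each of these genes were higher than all TranspCtrl values, an order found in 27.2% of all tested genes. Mcm2, the other subunit of the gate, was 67.2, 68.8 and 61.3 CPM against 86.0, 88.8 and 86.0 CPM (0.40 ± 0.075, adjusted p = 0.00599). Mcm6, whose promoter holds 3 E2F strings, was 115, 122 and 121 CPM against 141, 143 and 142 CPM, a smaller difference (0.25 ± 0.070, adjusted p = 0.0276) that was called in 4 of 13 alternative analyses and was lost, among others, without any 1 sample other than TranspCtrl sample 1. Mcm7, the subunit not called, was 82.3, 72.1 and 73.7 CPM against 83.0, 84.3 and 89.0 CPM, with log2 difference 0.17 (95% interval -0.017 to 0.35). Exons of Mcm7 overlap those of Ap4m1 and Cops6 on the other strand, and neither the use of strand in counting nor the kit is settled by the sources. Per length, mean levels of the 6 subunits in TranspCtrl lay between 19.5 RPKM (CPM per kilobase of gene length) for Mcm2 and 40.9 RPKM for Mcm6, and in TranspExer between 25.8 and 48.7 RPKM for the same genes.

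Of the 5 licensing and firing factors, Cdt1, Gins2 and Mcm10 were higher, against 16.6% of all tested genes. Cdt1 (ENSMUSG00000006585, chr8:122568015-122573554), which brings the MCM ring to origins and is destroyed in S phase to prevent a second round, was 19.5, 29.5 and 31.3 CPM in TranspCtrl and 52.9, 52.5 and 50.3 CPM in TranspExer. TranspCtrl sample 1 was the lowest and the TranspExer samples lay close together, with no overlap. Its log2 difference of 0.95 ± 0.16 (adjusted p = 0.00382) was the largest of the 44, and was 0.77 without TranspCtrl sample 1. Leaving out TranspCtrl sample 2 or 3 took it past 2-fold. Gins2 (ENSMUSG00000031821, chr8:120578633-120589304), a subunit of the GINS complex that activates the helicase, was 30.6, 38.2 and 37.1 CPM against 58.4, 58.5 and 63.7 CPM (0.77 ± 0.10, adjusted p = 0.0012), and was 0.68 without TranspCtrl sample 1. Its exons overlap those of Gse1 on the other strand. Mcm10, a scaffold that joins the helicase to polymerase, was 17.7, 17.3 and 18.3 CPM against 24.1, 23.9 and 22.0 CPM (0.39 ± 0.088, adjusted p = 0.0122). The call was lost without TranspExer sample 1 (0.36, adjusted p = 0.056) and without TranspExer sample 2 (0.37, adjusted p = 0.0626). The other licensing factor, Cdc6, was 20.3, 17.8 and 19.0 CPM against 20.9, 19.4 and 22.3 CPM, with overlapping groups and log2 difference 0.13 (95% interval -0.10 to 0.36). Cdc45, the GINS partner in the active helicase, was 24.4, 16.3 and 17.2 CPM against 20.4, 21.0 and 18.0 CPM. Here TranspCtrl sample 1 was the highest of all 6, the log2 difference was 0.038 (95% interval -0.34 to 0.41), and its sign turned under 2 other scalings. Cdc45 shares exon positions with Ufd1 on the other strand.

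Of the clamp and of the proteins that copy chromatin with DNA, Pcna and Uhrf1 were higher and Slbp was not called. Pcna, the ring that tethers polymerases to DNA, was 161, 121 and 130.3 CPM in TranspCtrl and 195, 189.9 and 165 CPM in TranspExer. The lowest TranspExer sample exceeded the highest TranspCtrl sample only narrowly, and the log2 difference of 0.41 ± 0.12 (adjusted p = 0.0349) was called in 6 of 13 alternatives and was likewise lost without any 1 sample other than TranspCtrl sample 1. Per length, Pcna had the highest mean level of the replication genes in both groups, at 90.6 and 121 RPKM. Uhrf1 (ENSMUSG00000001228, chr17:56303321-56323486), which brings the maintenance DNA methyltransferase to new DNA, was 71.5, 96.9 and 101 CPM against 138, 135 and 136 CPM (0.60 ± 0.13, adjusted p = 0.00985). TranspCtrl sample 1 was again the lowest, and the log2 difference was 0.46 without it. Slbp, which binds histone mRNA, was 53.6, 51.6 and 52.7 CPM against 55.7, 56.0 and 52.4 CPM, with overlapping groups and log2 difference 0.055 (95% interval -0.11 to 0.22).

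The subunits of ribonucleotide reductase, the enzyme that makes deoxynucleotides, had different values. Rrm2 (ENSMUSG00000020649, chr12:24708241-24714146), the small subunit made in S phase, was 82.6, 119 and 125 CPM in TranspCtrl and 188, 183 and 196 CPM in TranspExer (0.80 ± 0.15, 95% interval 0.46 to 1.14, adjusted p = 0.00569). The groups did not overlap, and TranspCtrl sample 1 was the lowest. Rrm1, the large subunit, whose protein is steady through the cycle, was 158, 141 and 139 CPM against 140.4, 142 and 130.0 CPM, with overlapping groups and log2 difference -0.086 (95% interval -0.28 to 0.11). The 2 intervals do not overlap, and the difference between the 2 genes was not tested. Tyms, which makes thymidylate, was 25.5, 20.5 and 21.8 CPM against 27.0, 24.9 and 25.2 CPM, with log2 difference 0.19 (95% interval -0.055 to 0.43). TranspCtrl sample 1 overlapped the TranspExer samples, and without it Tyms was called higher at 0.28.

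Of the regulators of the G1/S step, E2f1 was higher. This activating E2F factor was 23.5, 23.8 and 24.8 CPM in TranspCtrl and 31.3, 29.8 and 33.1 CPM in TranspExer, with no overlap (0.39 ± 0.082, adjusted p = 0.0103). The call was lost without TranspExer sample 3 (log2 difference 0.33) and with the GC correction, which reduced the difference to 0.21 (adjusted p = 0.0785). Ccne1, an E cyclin that drives entry into S phase, was 13.3, 13.6 and 14.1 CPM against 15.4, 15.1 and 15.2 CPM. Its groups did not overlap, but its log2 difference of 0.16 (95% interval -0.052 to 0.36) was not called. Ccne2, the other E cyclin, was 21.1, 18.1 and 21.0 CPM against 23.9, 22.8 and 20.7 CPM, with overlap and log2 difference 0.16 (95% interval -0.080 to 0.40). Exons of Ccne2 overlap those of the more abundant Ints8 on the other strand.

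**Figure D2:**
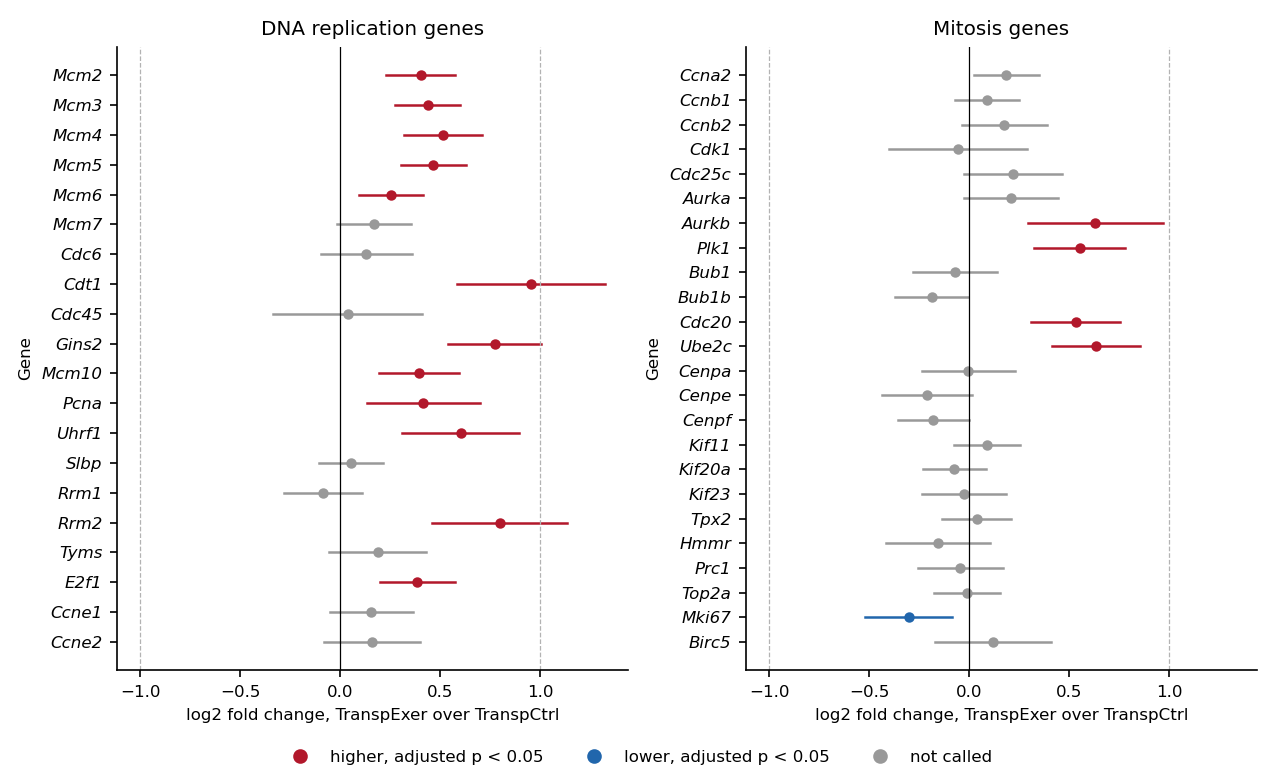
Points give the log2 fold change of each member, TranspExer over TranspCtrl, with its 95% interval, and dashed lines stand at 2-fold. Replication genes lie between -0.086 and 0.95 with 12 called higher, and mitosis genes between -0.30 and 0.63 with 4 called higher and 1 lower.

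The second comparison took the mitosis genes. Of the 24, 4 (16.7%) were higher in TranspExer, against 16.6% of all tested genes, and 1 (4.17%) was lower, against 15.5%. At an unadjusted p under 0.05, 5 were higher and 3 lower, beside 3394 and 3346 of the 15190 tested genes, and DESeq2 called 4 and 1, beside 2627 and 2388. The median log2 difference was 0.018, with 12 values positive and 12 negative, and it turned to -0.063 with upper-quartile factors and -0.071 with library size alone. In 8 genes every TranspExer sample lay above every TranspCtrl sample, against 27.2% of all tested genes, in 4 below, against 25.1%, and in 12 the groups overlapped. Without TranspCtrl sample 1, 7 were higher, with Ccna2, Aurka and Birc5 added, against 22.1% of all tested genes, and Mki67 was again the one lower, against 19.6%.

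The 4 higher mitosis genes encode 2 kinases and 2 parts of the machinery that ends mitosis. Plk1 (ENSMUSG00000030867, chr7:122159439-122169873), the polo-like kinase of mitotic entry and spindle assembly, was 37.9, 48.7 and 45.5 CPM in TranspCtrl and 64.7, 65.1 and 64.1 CPM in TranspExer (0.55 ± 0.10, adjusted p = 0.00504). Aurkb (ENSMUSG00000020897, chr11:69045647-69051664), the kinase of the chromosomal passenger complex, was 23.8, 34.7 and 35.7 CPM against 50.9, 47.4 and 47.5 CPM (0.63 ± 0.15, adjusted p = 0.0145). Neither gene overlapped between groups, and TranspCtrl sample 1 was the lowest in both. Cdc20 (ENSMUSG00000006398, chr4:118432901-118437352), which activates the anaphase-promoting complex (APC/C), was 43.7, 53.2 and 54.6 CPM against 71.3, 72.7 and 75.3 CPM (0.53 ± 0.10, adjusted p = 0.00543). Its exons overlap those of the more abundant Elovl1 on the other strand. Ube2c (ENSMUSG00000001403, chr2:164769898-164778822), the ubiquitin-conjugating enzyme that works with the APC/C, was 41.8, 49.0 and 49.3 CPM against 78.9, 69.4 and 69.3 CPM (0.63 ± 0.10, adjusted p = 0.00235). The log2 differences without TranspCtrl sample 1 were 0.46 for Plk1, 0.47 for Aurkb, 0.44 for Cdc20 and 0.56 for Ube2c. The Aurkb call was lost without TranspExer sample 1 (log2 difference 0.59, adjusted p = 0.0582) and without TranspExer sample 3 (0.64, adjusted p = 0.0519).

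Mki67 (ENSMUSG00000031004, chr7:135689784-135716361), the Ki-67 protein that coats mitotic chromosomes and is widely used to mark dividing cells, was the one gene called lower. It was 339, 290.2 and 295 CPM in TranspCtrl and 237, 245 and 268 CPM in TranspExer, with no overlap (-0.30 ± 0.095, adjusted p = 0.0418). The call was made in 5 of 13 alternatives, and was lost without any 1 sample other than TranspCtrl sample 1. With the length correction the log2 difference was -0.31 (adjusted p = 0.0505) and with the GC correction -0.26 (adjusted p = 0.0616), and it was called in neither. Top2a, the topoisomerase that untangles sister chromatids and another common mark of dividing cells, was 252, 251 and 244 CPM against 244, 245 and 253 CPM. Its log2 difference was -0.0093, with a 95% interval of -0.17 to 0.16. Birc5 (survivin), a partner of Aurkb in the passenger complex, was 39.4, 29.6 and 32.1 CPM against 38.1, 39.3 and 32.5 CPM with overlapping groups (0.12, 95% interval -0.17 to 0.41).

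The other mitotic kinases and checkpoint proteins were not called. Aurka, the kinase of spindle poles, was 29.0, 24.4 and 23.6 CPM against 29.6, 31.1 and 28.4 CPM (0.21, 95% interval -0.026 to 0.44). Bub1, a checkpoint kinase, was 28.5, 29.4 and 26.3 CPM against 27.9, 27.6 and 24.6 CPM (-0.071, 95% interval -0.28 to 0.14). Bub1b (BubR1), which holds back Cdc20 until chromosomes are attached, was 59.5, 56.7 and 54.1 CPM against 47.0, 49.6 and 53.0 CPM. All TranspExer samples of Bub1b lay below the TranspCtrl samples, but the log2 difference of -0.19 did not pass the adjusted threshold (adjusted p = 0.107). It passed with 2 other scalings and with a correction for length.

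The cyclins and CDK1, the engine of mitotic entry, were not called, and 4 of the 5 did not overlap between groups, where every TranspExer sample was above in 27.2% of all tested genes. Ccna2 (cyclin A2) was 77.6, 81.0 and 83.9 CPM in TranspCtrl and 93.1, 89.6 and 93.1 CPM in TranspExer (0.19, 95% interval 0.023 to 0.35, adjusted p = 0.0784). Exons of Ccna2 overlap those of Exosc9 on the other strand. Ccnb1 (cyclin B1) was 58.6, 54.9 and 57.5 CPM against 62.2, 60.3 and 59.2 CPM, and Ccnb2 (cyclin B2) 31.7, 28.0 and 32.9 CPM against 36.9, 33.0 and 34.8 CPM. The log2 differences were 0.087 and 0.18. Cdc25c, the phosphatase that turns CDK1 on, averaged 8.79 ± 0.486 CPM against 10.2 ± 0.291 CPM (SD, n = 3), with log2 difference 0.22. In these 4 genes each TranspExer sample exceeded each TranspCtrl sample, but none passed the adjusted threshold. Cdk1 itself was 56.5, 38.1 and 40.9 CPM against 44.8, 46.1 and 39.6 CPM, with TranspCtrl sample 1 the highest of the 6 and a log2 difference of -0.055 (95% interval -0.40 to 0.29), which was 0.14 without that sample.

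None of the 9 centromere, kinesin and spindle genes was called, against 16.6% of all tested genes called higher and 15.5% lower. Cenpa, the histone of centromeres, was 37.6, 29.7 and 34.6 CPM in TranspCtrl and 35.2, 33.2 and 33.4 CPM in TranspExer, with overlapping groups. The kinetochore proteins Cenpe and Cenpf had log2 differences of -0.21 and -0.18, and all TranspExer samples lay below the TranspCtrl samples for Cenpf, at 52.2, 48.2 and 46.4 CPM against 42.0, 44.5 and 43.2 CPM. Log2 differences of the motor Kif11, the cytokinesis kinesins Kif20a and Kif23, the spindle proteins Tpx2 and Hmmr and the midzone protein Prc1 ran from -0.16 (Hmmr) to 0.091 (Kif11). Of these 6, Kif20a did not overlap between groups, at 62.3, 61.8 and 60.4 CPM against 58.3, 60.2 and 56.9 CPM. The order of Cenpf and Kif20a, with every TranspExer sample below, was found in 25.1% of all tested genes. Exons of Kif20a overlap those of Cdc23 on the other strand, and exons of Prc1 those of the less abundant Rccd1. The widest 95% interval among these 9, for Hmmr, was -0.42 to 0.10.

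In summed level the groups did not overlap for the replication genes, and for the mitosis genes they overlapped through TranspCtrl sample 1 alone. The 20 replication genes summed to 1223, 1236 and 1259 CPM in TranspCtrl and 1639, 1624 and 1614 CPM in TranspExer, a ratio of means of 1.31, or 1.30 without TranspCtrl sample 1. The 24 mitosis genes summed to 1642, 1534 and 1552 CPM against 1606, 1598 and 1609 CPM, a ratio of 1.02, or 1.04 without that sample, and TranspCtrl samples 2 and 3 lay below every TranspExer sample. Within a sample, the replication sum over the mitosis sum was 0.745, 0.806 and 0.811 in TranspCtrl and 1.02, 1.02 and 1.00 in TranspExer. The ratio is free of library scaling, and its groups did not overlap. No test was run on these sums, since the genes were chosen with earlier results of these data known.

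**Figure D3:**
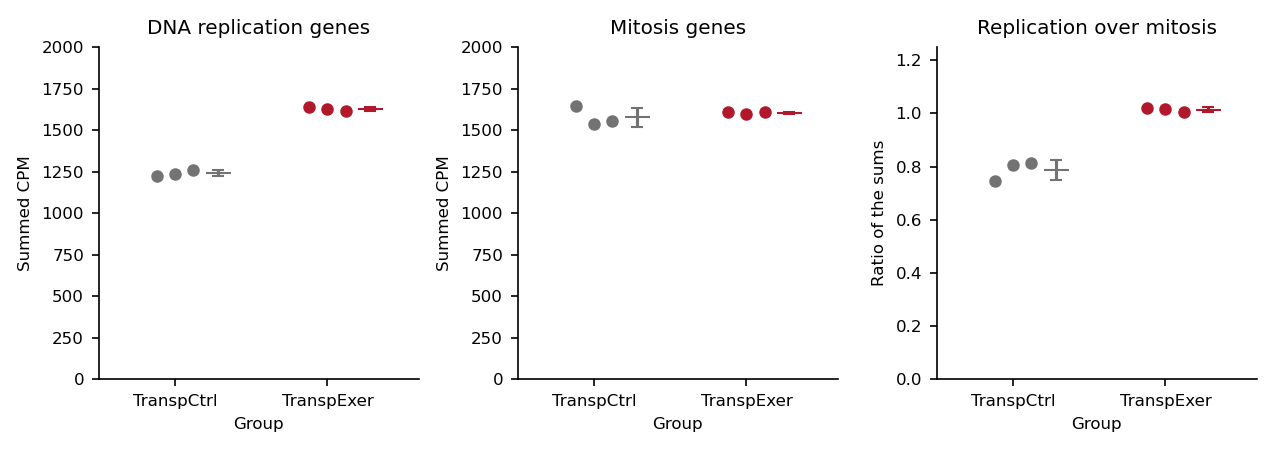
Summed CPM of the 20 replication genes and of the 24 mitosis genes and the ratio of the 2 sums, with a point per sample and the group mean ± SD beside them (n = 3). TranspExer samples lie at 1614 to 1639 CPM for replication against 1223 to 1259 in TranspCtrl, while for mitosis they lie between TranspCtrl values of 1534 and 1642.

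Spread within each group was given by the coefficient of variation. The median coefficient of variation of replication genes was 7.19% in TranspCtrl and 3.89% in TranspExer, and of mitosis genes 8.55% and 4.30%. Over all tested genes it was 13.1% and 7.16%. Without TranspCtrl sample 1, added after the data were seen, it was 3.58% for replication genes, 2.47% for mitosis genes and 4.79% for all tested genes. These values are over 2 samples, which lowers a median coefficient of variation by construction, so that no order against TranspExer is read from them. TranspCtrl sample 1 was the highest of its group for 15 of the 24 mitosis genes and for 8 of the 20 replication genes. It was the lowest for 6 of the 24 and for 8 of the 20. Of the 15190 tested genes it was the highest for 6314 and the lowest for 6850. It was the lowest for all 9 genes called higher with a log2 difference over 0.5 (Cdt1, Rrm2, Gins2, Ube2c, Aurkb, Uhrf1, Plk1, Cdc20 and Mcm4). Their log2 differences were 0.51 to 0.95 with it and 0.44 to 0.77 without it. A low value in that sample enlarges the difference by which these 9 were chosen. Among the other 7 genes called higher TranspCtrl sample 1 was the lowest for 2.

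Transcript composition moved with these values. Over the 24 mitosis genes the log2 difference had a Pearson r of 0.73 with the GC content of each gene's longest transcript. With the log2 of gene length r was -0.64. Over the 20 replication genes these were 0.45 and 0.055, against 0.14 and 0.17 over the 14984 tested genes with a GC value. These are correlations across genes, which share the same 6 libraries and are not independent replicates. The 4 mitosis genes called higher had 52.5% to 56.0% GC and 967 to 2199 bases, and Mki67 had 46.6% GC and 10061 bases. With the GC trend of each sample removed, 12 replication genes were higher and none lower, against 15.4% and 15.3% of tested genes. Of these, 11 were called before the correction, E2f1 was lost and Ccne2 was gained. With the same correction 5 mitosis genes were higher, with Ccna2 added, and none was lower. With the length trend removed, the same 12 replication genes were higher, against 17.8% of tested genes, and none was lower, against 17.5%. Bub1b was then called lower, Mki67 was not called (log2 difference -0.31), and 4 mitosis genes were higher. What the relation with GC and length comes from was not tested.

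**Figure D4:**
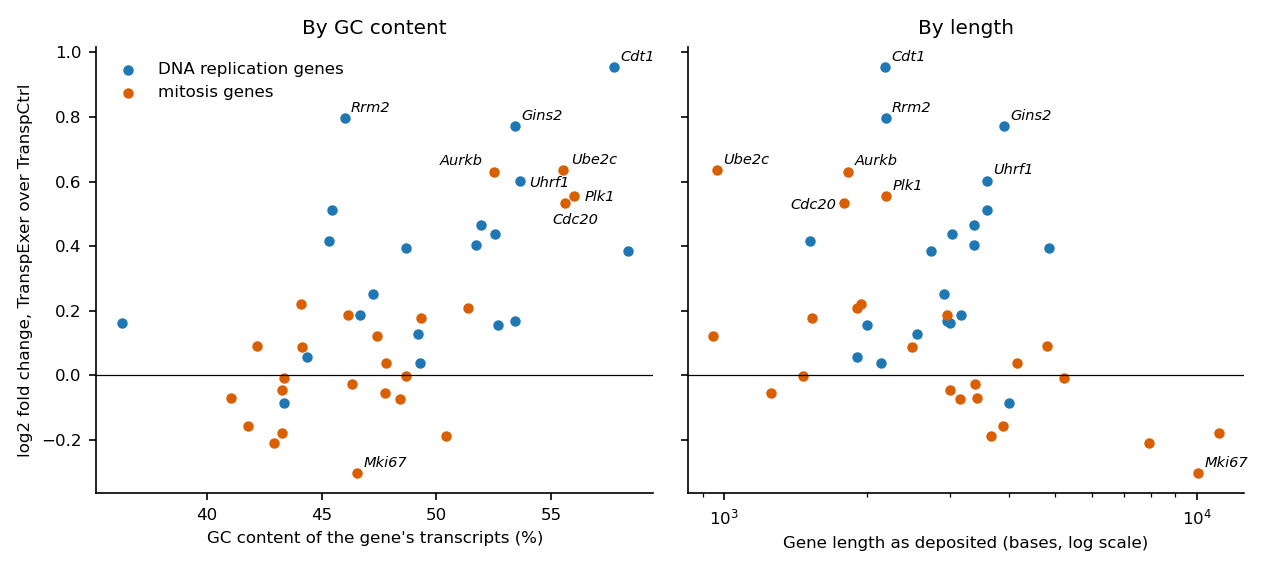
Log2 fold change, TranspExer over TranspCtrl, of each member against the GC content of its longest transcript (left) and its length on a log scale (right). Replication genes are in blue and mitosis genes in orange. Aurkb, Plk1, Cdc20 and Ube2c lie at 52.5% GC and over, and Mki67 lies at 10061 bases.

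Outside the 44, the genes of the same pathways were taken from 9 lists of 171 genes. In all, 35 (20.5%) were higher and 5 (2.92%) lower, with median log2 difference 0.082, against 16.6% and 15.5% of all tested genes. The low count of lower genes depended on the analysis, since without TranspCtrl sample 1 there were 46 higher and 15 lower, against 22.1% and 19.6% of all tested genes, and with the length correction 38 and 12, against 17.8% and 17.5%. With the GC correction there were 32 and 6, against 15.4% and 15.3%. Shares of higher genes ran from 4.55% to 50% by list, and differences between lists were not tested. Of 12 cyclins and kinases of G1 and of checkpoints, 6 (50%) were higher and none lower (2 lower at an unadjusted p, 1 in DESeq2). In this list 3 were lower without TranspCtrl sample 1 and 2 with either the GC or the length correction. Cdk6, a kinase that phosphorylates RB and is abundant in blood progenitors, was 53.9, 84.3 and 84.9 CPM in TranspCtrl and 142, 141 and 151 CPM in TranspExer (0.96 ± 0.16, adjusted p = 0.00409). Its groups did not overlap. Ccnd3, its cyclin D partner, was 73.2, 95.3 and 105 CPM against 139.9, 139.7 and 133 CPM (0.59 ± 0.13, adjusted p = 0.0112), and Pkmyt1, which restrains CDK1, had a log2 difference of 0.54 ± 0.12 (adjusted p = 0.0111). Of 18 E2F, RB and DREAM genes, 7 (38.9%) were higher and none lower (1 lower at an unadjusted p, none in DESeq2), while 1 was lower without TranspCtrl sample 1 or with the length correction. Among these, Mybl2 (B-Myb), a MuvB partner, was 17.3, 22.8 and 22.4 CPM against 32.2, 33.5 and 37.7 CPM (0.73 ± 0.13, adjusted p = 0.00418). The repressor E2f8 was 19.8, 21.4 and 20.2 CPM against 31.2, 30.4 and 32.9 CPM (0.62 ± 0.083, adjusted p = 0.00132), and E2f4, the E2F of DREAM, had a log2 difference of 0.50 ± 0.095 (adjusted p = 0.00613). E2f8 lacked overlap between groups, as did Mybl2.

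The enzymes of the fork differed in part. Of 22 polymerase and Okazaki fragment genes, 8 (36.4%) were higher and 1, the clamp loader subunit Rfc1, lower. Of all tested genes 16.6% were higher and 15.5% lower. Pold1, the catalytic subunit of lagging-strand polymerase delta, was 28.9, 33.8 and 30.2 CPM in TranspCtrl and 49.0, 48.6 and 51.0 CPM in TranspExer (0.68 ± 0.084, adjusted p = 0.000931), a difference of 0.45 with the GC correction. Lig1, which seals Okazaki fragments, was 48.5, 47.6 and 49.6 CPM against 65.7, 65.5 and 66.9 CPM (0.44 ± 0.067, adjusted p = 0.00235), and Chaf1b, which deposits histones behind the fork, had a log2 difference of 0.54 ± 0.10 (adjusted p = 0.00517). Of 22 further origin and replisome genes 1 (4.55%) was higher (Mcmbp, 0.45 ± 0.12, adjusted p = 0.0214) and none lower (1 lower at an unadjusted p, none in DESeq2). Of 11 genes of deoxynucleotide synthesis 1 (9.09%) was higher (Dck, 0.55 ± 0.14, adjusted p = 0.0188) and none lower. At an unadjusted p 3 of the 11 were higher and 0 lower, and DESeq2 called 1 and 0. Without TranspCtrl sample 1, 3 genes of each of these 2 lists were higher and 0 lower, against 22.1% and 19.6% of all tested genes. With the length correction 2 of each were higher and 1 origin and replisome gene was lower, against 17.8% and 17.5%.

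In the 4 lists of mitotic genes outside the 24, 7.69% to 20% of genes were higher, a range that includes the 16.6% of all tested genes. Shares of lower genes ran from 0% to 10%, against 15.5% of all tested genes. Of 26 kinetochore genes 2 were higher, Nsl1 (0.48 ± 0.11, adjusted p = 0.0135) and Cenpt (0.33 ± 0.088, adjusted p = 0.0241), and none was lower (1 at an unadjusted p, none in DESeq2). Of 20 checkpoint and APC/C genes 4 were higher, among them the APC/C inhibitor Fbxo5 (0.50 ± 0.11, adjusted p = 0.0103), and 2 APC/C subunits, Anapc4 and Cdc16, were lower. Of the 20, 5 were higher and 6 lower without TranspCtrl sample 1, against 22.1% and 19.6% of all tested genes. With the GC correction 2 were higher and 3 lower, against 15.4% and 15.3%. With the length correction 4 were higher and 4 lower, against 17.8% and 17.5%. The small APC/C subunit Anapc11 was higher (0.34 ± 0.074, adjusted p = 0.011). Of 17 condensin and cohesin genes 2 were higher, Cdca5 (0.29) and Sgo2a (0.30), and 1 lower, Ncapg2 (-0.23), whereas DESeq2 called 0 higher. With the GC correction Cdca5 (0.26, adjusted p = 0.0619) and Ncapg2 (-0.17, adjusted p = 0.0957) were not called, which left 1 higher and 0 lower. Of 23 spindle and cytokinesis genes 4 were higher and 1, the kinesin Kif20b, lower (-0.48 ± 0.13, adjusted p = 0.024). Kif20b was not called with the GC correction (-0.36, adjusted p = 0.0543), and its log2 difference was -0.33 without TranspCtrl sample 1. In this list 3 were lower without TranspCtrl sample 1, 0 with the GC correction and 2 with the length correction. The shares of all tested genes were 19.6%, 15.3% and 17.5%. Cdca8 (borealin), which joins Aurkb in the passenger complex, was 30.6, 31.6 and 33.9 CPM against 46.3, 48.1 and 46.6 CPM (0.55 ± 0.075, adjusted p = 0.00145), and Tacc3, a spindle protein, had a log2 difference of 0.45 ± 0.076 (adjusted p = 0.00379). Cdca8 did not overlap between the groups.

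**Figure D5:**
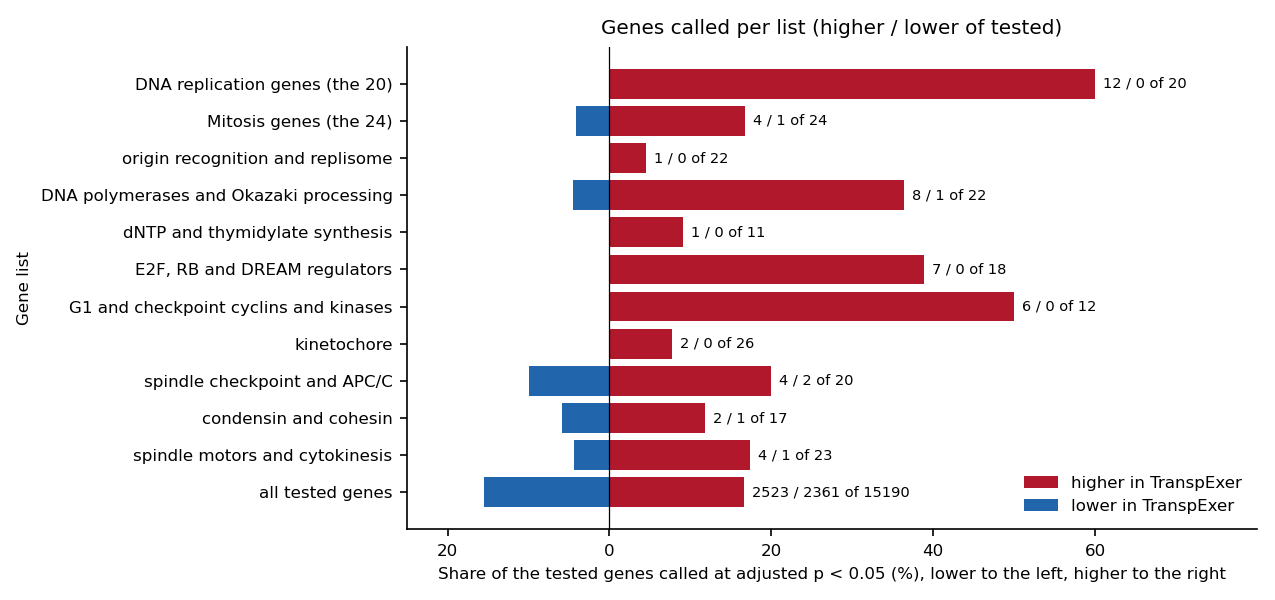
Share of tested genes called at an adjusted p under 0.05, higher in TranspExer to the right and lower to the left, for the 20 replication genes, the 24 mitosis genes, the 9 further lists and all 15190 tested genes. Replication genes reach 60% higher and mitosis genes 16.7%, beside 16.6% of all tested genes.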

How the data were processed

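RNA-Seq of BM MSCs was compared between 3 TranspCtrl and 3 TranspExer samples, grouped by the sample labels. The authors deposited expected counts per gene (estimated counts, not normalized, 10.1% to 12.2% of values per sample not whole) with a gene length in bases. The build was mm10 per the submitters' processing notes, while aligner, counter and annotation are not given in the sources used here. The kit is a stranded mRNA ligation kit per the labels and a TruSeq RNA kit in the study's methods, a conflict not settled here, and whether strand was used in counting is not stated. Counts were rounded and tested with edgeR 4.0.16 in R 4.3.3 (filterByExpr, TMM, quasi-likelihood test of the 2 conditions with no covariate, Benjamini-Hochberg adjustment over 15190 genes). Each log2 difference is TranspExer minus TranspCtrl with its SE from the F statistic. CPM were TMM-scaled, and RPKM were CPM divided by the deposited length. Positions and GC content came from GENCODE M21, matched for 52073 of 56980 identifiers and all 44 genes, and promoters from RefSeq. GC content was that of each gene's longest transcript. Alternatives were DESeq2 1.42.0, 2 other scalings, no filter, the replicate block, each sample left out and, added after the data were seen, GC and length corrections. The methods were tested on simulated data. The 44 genes and all lists were chosen with earlier results of these data known. Besides the 44, up to 3 genes of smallest adjusted p were named from each pathway list and some of the 3 most abundant from marker lists, and Rfc1 and Cdc16 were named after their values were seen. Intervals and floors cover the spread of these samples or counting error only.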

Additional observations from a re-analysis of the deposited data

How the results depend on the processing

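Replication genes were called higher in 9 to 14 of 20 cases and lower in 0 under the 13 alternatives, and Mcm2, Mcm3, Mcm4, Mcm5, Cdt1, Gins2, Uhrf1, Rrm2, Plk1, Cdc20 and Ube2c were called in each. The replication median of 0.39 was 0.31 with upper-quartile factors, 0.30 with library size alone, 0.34 with the GC correction, 0.34 with the length correction and 0.36 to 0.38 with a sample left out. With a sample left out 0 to 1 of them (Cdt1) passed 2-fold. The mitosis median of 0.018 was -0.063 with upper-quartile factors, -0.071 with library size alone, 0.071 with the GC correction, 0.0011 with the length correction and -0.0066 to 0.084 with a sample left out. Mitosis genes called higher numbered 3 to 7 with a sample left out, 7 being without TranspCtrl sample 1. Mitosis genes called lower numbered 2 with upper-quartile factors, 2 with library size alone, 0 with the GC correction and 0 to 1 with a sample left out, 1 being without TranspCtrl sample 1. Over all tested genes, leaving out a sample gave 1315 to 3417 higher and 1325 to 3041 lower. Without TranspExer sample 1, 2 or 3 these were 1458, 1315 and 1327 higher and 1407, 1325 and 1352 lower.

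No source says that replicate numbers pair the samples, and deviations of same-numbered samples correlated by 0.025, -0.0017 and 0.042. With the replicate block, 11 replication genes were higher, and mitosis genes were 4 higher and 0 lower. Of the 15190 tested genes 2484 were then higher and 2218 lower. Cenpa turned to 0.0021 on the log2 scale.

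The other members that changed sign were called neither before nor after. They were Cdc45 (-0.048), Slbp (-0.024) and Tpx2 (-0.041) with upper-quartile factors, and Cdc45 (-0.056), Slbp (-0.032), Tpx2 (-0.049) and Ccnb1 (-0.000175) with library size alone. With the GC correction they were Bub1 (0.031), Cenpa (0.025), Kif23 (0.017), Prc1 (0.033) and Top2a (0.067), and with the length correction Cenpa (0.011) and Tpx2 (-0.021). With a sample left out, Cdc45 ranged from -0.067 to 0.24, Cdk1 from -0.16 to 0.14, Cenpa from -0.088 to 0.073, Kif23 from -0.065 to 0.030, Tpx2 from -0.0087 to 0.069 and Prc1 from -0.092 to 0.051. The cause of each was not tested.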
